A study of Mus musculus with 16 samples.

Results

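Replication-dependent histone genes were followed in mouse ventricles over the first weeks after birth. They were the genes of the count table whose symbols belong to the histone clusters Hist1 to Hist4, pseudogenes left out, and numbered 67 of 53801 genes: 6 for the linker histone H1, 18 for H2A, 18 for H2B, 12 for H3 and 13 for H4. The samples were ventricular tissue of C57BL/6JOlaHsd mice, male and female pups together, taken on the first day after birth (P01) and on days 4 (P04), 9 (P09) and 23 (P23), and the labels name no genetic change or treatment for any group. Per the methods of the study, pups up to P09 had only mother's milk, while those of P23 could also eat general mouse diet. Age and diet therefore changed together in comparisons with P23. Each of the 16 libraries came from 1 animal, with 4 animals per time point, and libraries are called here by the number in the heading of their column. RNA was read with a small RNA kit that adds adenines to RNA ends during library making, and the values are reads per gene, so intact transcripts and fragments of them are not told apart.

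Replication-dependent histone genes make the core histones H2A, H2B, H3 and H4, around which DNA is wound, and the linker histone H1, which binds where DNA enters and leaves the nucleosome. They are switched on when DNA is copied in S phase, and their short mRNAs mostly lack introns and end in a stem-loop bound by Slbp in place of a natural poly(A) tail. Cardiomyocytes of the newborn mouse still divide and mostly leave the cell cycle during the first postnatal weeks, while replication-independent variants such as H2afz and H3f3a can be made outside S phase.

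Library totals ranged over 2301587 to 2904097 counts for P01, 3336621 to 4478212 for P04, 3935207 to 5505319 for P09 and 4694722 to 5553530 for P23. Mitochondrial genes took 40.9 to 44.1% of the counts at P23, against 17.6 to 19.7% at P01. Normalized counts are scaled with TMM factors, and CPM by the library total alone. All 12 cardiomyocyte markers passed the filter on low counts, with sums of 72781 to 100218 normalized counts in the P23 libraries and 37123 to 40461 in the P01 libraries. In P23–P01, 8 of them were called higher and 2 lower (Myh7 and Tnni1, the fetal isoforms), and Ttn held 34.4% of their counts. Bulk tissue cannot tell fewer cells of a type from less RNA per cell.

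Mean normalized counts on histone genes were lower at P04 than at P01 and lowest at P23. The sum over all 67 genes averaged 2977 ± 113 normalized counts in P01 libraries, 1925 ± 92.0 in P04, 1746 ± 254 in P09 and 689 ± 87.8 in P23 libraries (SD, n = 4 each). Relative to P01, these sums were 64.7% at P04, 58.7% at P09 and 23.2% at P23. The 4 libraries of P09 were spread more widely, with 1513, 1896, 1549 and 2025 normalized counts, and their range overlapped that of P04 (1819 to 2028) but not that of P01 (2851 to 3124) or P23 (589.7 to 797). As CPM of the library total the sums were 739.6 ± 42.0, 561 ± 33.1, 528 ± 40.6 and 130.1 ± 8.69 for P01, P04, P09 and P23, so that the P23 level was 17.6% of that at P01. With mitochondrial and nuclear rRNA genes left out of the total, P04 stood at 76.9%, P09 at 78.7% and P23 at 23.6% of P01, so that the order of P04 and P09 depends on the scaling.

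**Figure D1:**
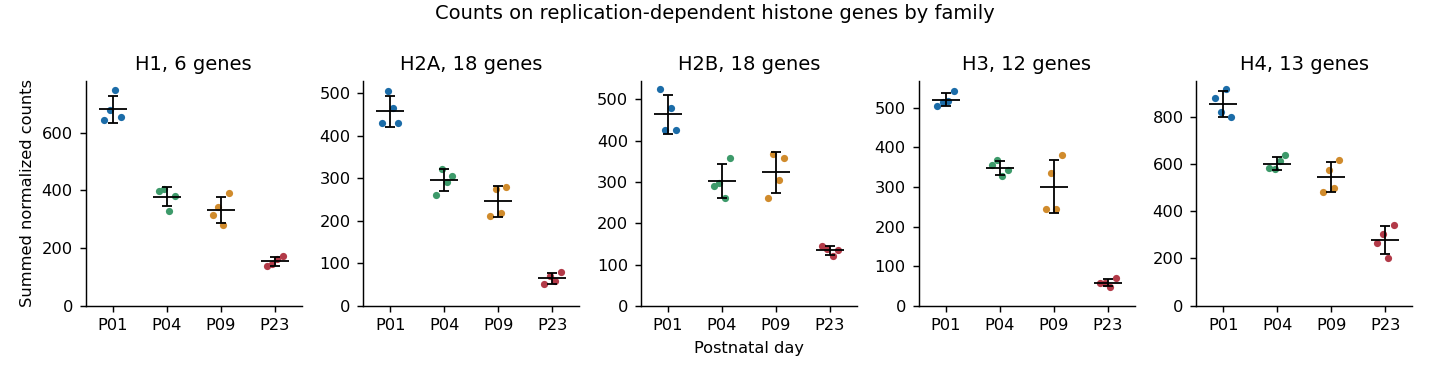
Summed normalized counts (y axis, starting at 0) of the H1, H2A, H2B, H3 and H4 genes at each postnatal day (x axis), with 1 point per library and the mean ± SD of 4 libraries. In every family the P23 libraries lie below those of each earlier day, and for H2B the P09 libraries span the same range as those of P04.

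The families did not end at the same share of their P01 level. At P23 the H3 genes summed to 58.7 ± 9.45 normalized counts, against 520.2 ± 15.9 at P01 (SD, n = 4 each), which is 11.3%. H2A stood at 14.1% and H1 at 22.6% of P01. H2B and H4 stood higher, at 29.0 and 32.5%, with Hist1h2bc in the H2B family and Hist1h4c and Hist1h4h in the H4 family taking larger shares of the family's counts at P23 than at P01. No test was run on these shares.

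Of the 67 genes, 49 passed the filter on low counts and were tested among 10742 genes with edgeR's quasi-likelihood test. A gene was called at an adjusted p under 0.01 and a fold change over 1.8. In P23–P01, 44 of the 49 were called lower and 0 higher, where 16.6% of all tested genes were called lower and 13.6% higher. Their median log2 fold change was -3.02, against 0.00 over all tested genes. At an unadjusted p under 0.05, 47 were lower and 1 was higher, and DESeq2 called 44 lower and 0 higher. The filter was set over all 16 libraries, so a gene with few counts at P23 was kept only through higher counts at earlier days. Hist1h4a, for instance, had 8 counts over the P23 libraries and 193 over those of P01. For such genes the filter itself favoured a lower value at P23. A fit of P23 and P01 alone tested 44 histone genes, with a median of -3.10.

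In P23–P09, 37 of the 49 genes were called lower and 0 higher (5.55% of all tested genes were called lower and 4.78% higher), with a median of -2.41 against 0.00 over all tested genes. The unadjusted p was under 0.05 for 43 lower and 0 higher genes, and DESeq2 called 36 lower and 0 higher. In P09–P04 the histone genes were close to level. edgeR called 0 lower and 1 higher (3.70% of all tested genes were called lower and 1.39% higher), with a median of -0.20 against -0.01. By unadjusted p under 0.05, 7 were lower and 2 higher, and DESeq2 called 0 lower and 1 higher.

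In P04–P01, 5 of the 49 genes were called lower and 0 higher (4.12% of all tested genes were called lower and 1.07% higher). Their median was -0.56 against 0.01 over all tested genes, and 34 were lower and 0 higher at an unadjusted p under 0.05. DESeq2 called 5 lower and 0 higher. Without P01 replicate 6, or without P04 replicate 1, 3 genes were called lower. Scaling by total counts, under which the median of all tested genes was 0.24, left 1. Some marker sums of other cells were also lower over this step. The atrial genes summed to 175 to 373 normalized counts at P04, against 539 to 754 at P01. Of 4 tested, 1 was called lower and 0 higher, and Nppa held 62.2% of the list's counts over all libraries. The erythroid genes summed to 810.4 to 1054 at P04, against 1397 to 1477 at P01. Of 6 tested, 1 was called lower and 1 higher, and Hbb-bs held 71.4% of the list's counts. The part of these genes' cells in the histone values was not tested.

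In P09–P01, which spans the days over which the newborn mouse heart loses its capacity to regenerate, 19 genes were called lower and 0 higher, against 11.5% lower and 6.18% higher of all tested genes. The median was -0.83 against 0.02, the unadjusted p was under 0.05 for 39 lower and 1 higher gene, and DESeq2 called 19 lower and 0 higher. Scaled by total counts, 7 genes were called lower, and 11 with no filter on low counts. The comparisons P04–P01, P09–P01 and P23–P01 share their P01 libraries and are not independent of each other.

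**Figure D2:**
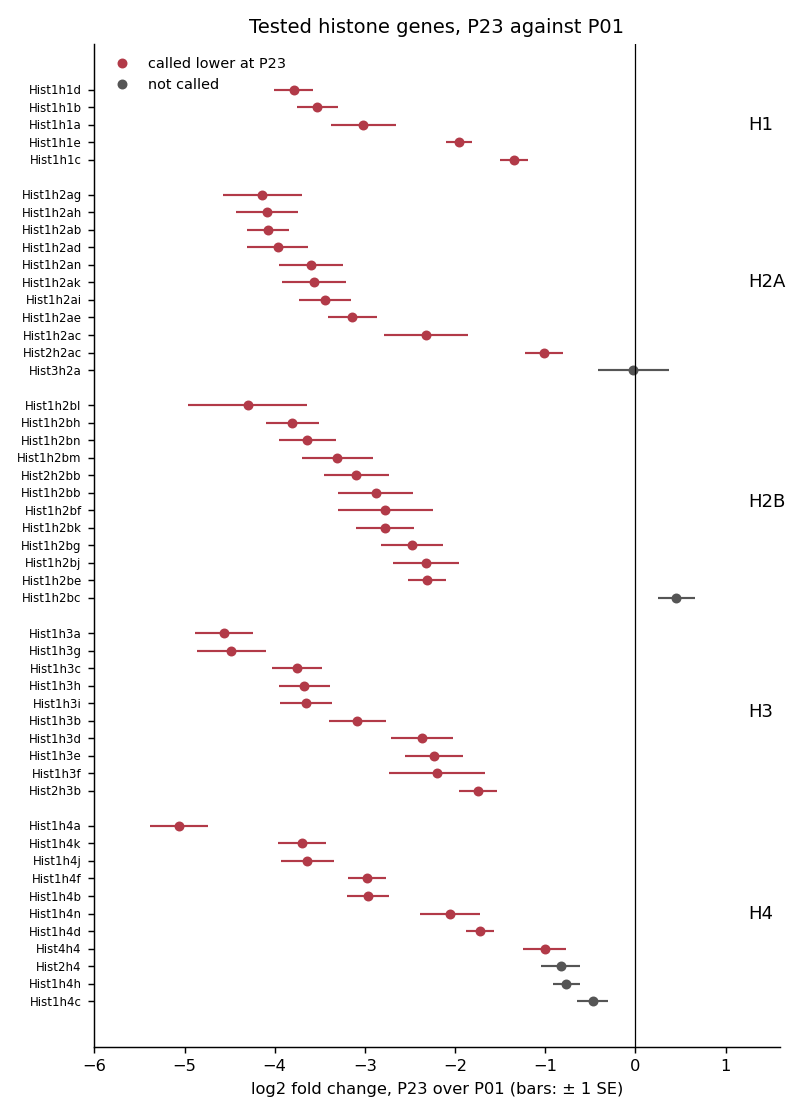
Log2 fold change of P23 over P01 (x axis) with ± 1 SE for each of the 49 tested histone genes, grouped by family on the y axis and coloured by whether the gene was called lower. Values run down to -5.06 for Hist1h4a, and Hist1h2bc (0.45) alone lies above 0.

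Of the H1 genes, whose products bind linker DNA and compact chromatin, all 5 that were tested were called lower in P23–P01, with a median of -3.02. Their time courses differed. Hist1h1c had 200.2, 193, 194 and 211 normalized counts in P01 libraries, 79.5, 115, 71.5 and 86.1 in P04, 87.3, 105, 69.7 and 104 in P09 and 73.3, 68.4, 88.7 and 83.8 in P23 libraries. The libraries of P04, P09 and P23 overlapped each other, and all of them lay below those of P01. The log2 fold change was -1.18 ± 0.15 in P04–P01 (SE, adjusted p = 8.50e-07), and in P23–P09 it was -0.22 ± 0.15 (adjusted p = 0.323).

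Hist1h1d had 125, 132, 213 and 112 normalized counts in P01 libraries, 69.6, 70.8, 75.6 and 68.2 in P04, 54.2, 59.0, 51.5 and 73.1 in P09 and 13.6, 8.32, 8.87 and 11.6 in P23 libraries. Each library of P04 and P09 lay below all of P01, and each library of P23 below all of P09. Its log2 fold changes were -1.04 ± 0.17 in P04–P01 (adjusted p = 5.15e-05), a call lost without P01 replicate 6, and -2.49 ± 0.22 in P23–P09 (adjusted p = 5.08e-10).

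Hist1h1e lay between these patterns, with 37.7, 59.2, 51.4 and 56.7 normalized counts in the P23 libraries, against 189, 195, 210.1 and 204 in the P01 libraries. The groups were far apart, and the log2 fold change was -1.96 ± 0.15 (SE, adjusted p = 1.80e-12). Hist1h1b had 9.43, 5.55, 9.75 and 10.3 normalized counts at P23, against 93.6, 114, 99.7 and 97.9 at P01, a log2 fold change of -3.53 ± 0.22 (adjusted p = 6.18e-14). Hist1h1c held 50.9% of the H1 counts at P23, against 29.4% at P01, as counts that are not corrected for length. The testis-specific Hist1h1t was under the filter, with 4 counts over the P23 libraries and 10 over the P01 libraries.

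Of the H2A genes, 10 of 11 tested were called lower in P23–P01, with a median of -3.56. Hist1h2ab had 87.9, 125, 91.6 and 83.9 normalized counts in P01 libraries, 51.7, 74.9, 58.3 and 61.9 in P04, 41.0, 55.4, 44.0 and 51.3 in P09 and 4.19, 3.70, 6.21 and 9.03 in P23 libraries. The P04 and P09 libraries overlapped and the P23 libraries lay far below both. Its log2 fold change was -4.07 ± 0.24 in P23–P01 (SE, adjusted p = 8.20e-15) and -1.02 ± 0.17 in P09–P01 (adjusted p = 1.28e-05).

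The lowest H2A value was that of Hist1h2ag, at -4.14 ± 0.44 (SE, adjusted p = 3.08e-09). It had 7 counts over the 4 P23 libraries and 90 over the P01 libraries, a ratio of 0.0534 after scaling (exact 95% interval for counting error only, 0.0209 to 0.115). Hist1h2ah and Hist1h2ad, with P23–P01 values of -4.09 ± 0.34 and -3.97 ± 0.34, had also been called lower in P09–P01, at -1.40 ± 0.23 and -1.22 ± 0.23. The other tested H2A genes of the Hist1 cluster had P23–P01 log2 fold changes of -3.60 to -2.32.

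The tested H2A genes outside the Hist1 cluster, picked after their values were seen, had the values nearest to 0 in the family. Hist2h2ac, on chromosome 3 at 96220413 to 96220880, had 43.2, 52.4, 39.1 and 43.4 normalized counts in P01 libraries, 17.9, 27.7, 22.5 and 30.5 in P04, 26.3, 23.2, 21.4 and 22.7 in P09 and 19.9, 27.7, 16.8 and 23.2 in P23 libraries. All libraries after P01 lay below all libraries of P01 and overlapped among themselves. Its log2 fold change was -1.01 ± 0.21 in P23–P01 (adjusted p = 1.55e-04) and -0.10 ± 0.21 in P23–P09 (adjusted p = 0.771). Hist3h2a, on chromosome 11, had 7.33, 13.9, 10.6 and 6.45 normalized counts at P23, against 7.20, 14.5, 14.8 and 4.20 at P01. The groups overlapped fully, the log2 fold change was -0.02 ± 0.39 (SE, adjusted p = 0.967), and at this low level a change of the size of the SE could not be seen. Its span overlaps that of Trim17, and reads of the overlap could belong to either gene.

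Of the H2B genes, 11 of 12 tested were called lower in P23–P01, with a median of -2.83. Hist1h2bh had 46.1, 56.1, 53.9 and 50.4 normalized counts in P01 libraries, 27.8, 30.1, 24.5 and 26.9 in P04, 15.8, 25.9, 11.9 and 19.3 in P09 and 3.14, 2.77, 2.66 and 6.45 in P23 libraries. The P04 and P09 libraries overlapped, and the other neighbouring time points did not. It had the lowest value of all members in P09–P01, -1.53 ± 0.21 (SE, adjusted p = 1.06e-06), and reached -3.81 ± 0.30 in P23–P01 (adjusted p = 4.46e-12). Its P04–P01 value of -0.91 ± 0.21 (adjusted p = 0.00282) was no longer called when replicate 5 or 6 of P01, or replicate 1, 4 or 6 of P04, was left out.

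Hist1h2be fell in P04–P01 by 0.88 ± 0.18 on the log2 scale (SE, adjusted p = 8.89e-04), a call lost without P01 replicate 6 or P04 replicate 3, and reached -2.31 ± 0.21 in P23–P01. Its span overlaps that of Gm33387. Hist1h2bg, with 3.14, 14.8, 10.6 and 18.1 normalized counts at P23 against 82.1, 50.6, 68.7 and 54.6 at P01, had -2.48 ± 0.34 (adjusted p = 6.92e-06). Hist1h2bl had 2 counts over all P23 libraries and 33 over all P01 libraries, a scaled ratio of 0.0416 (exact 95% interval 0.00484 to 0.163), and a fitted log2 fold change of -4.30 ± 0.66.

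Hist1h2bc (ENSMUSG00000018102) was the exception in the family. It is annotated on chromosome 13 at 23684199 to 23692480 (GRCm38.p6), a span of 8282 bases, where the median span of the members is 493 bases. Other H2B genes have longer annotated spans, of 37455 bases for Hist1h2be, which was called lower, and 14079 for Hist1h2bp, which was not tested. Hist1h2bc had 61.9, 36.2, 56.6 and 54.6 normalized counts in P01 libraries, 39.8, 47.2, 25.5 and 41.3 in P04, 53.1, 100.1, 72.2 and 73.1 in P09 and 84.9, 76.7, 74.5 and 51.6 in P23 libraries. The P09 and P23 libraries lay above those of P04, and the P01 libraries overlapped all other groups. The gene rose in P09–P04, with a log2 fold change of 0.93 ± 0.20 (SE, adjusted p = 0.00161), the single higher call among the histone genes in the 5 comparisons. Without P04 replicate 4 or without P09 replicate 3 that call was lost, at 0.79 and 0.77. In P23–P01 its value was 0.45 ± 0.21 (adjusted p = 0.0716) and in P23–P09 it was -0.03 ± 0.19 (adjusted p = 0.931). Of the H2B counts it held 11.2 ± 1.87% in P01 libraries, 12.7 ± 2.68% in P04, 22.9 ± 3.29% in P09 and 53.7 ± 10.4% in P23 libraries (SD, n = 4), as counts that are not corrected for length.

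**Figure D3:**
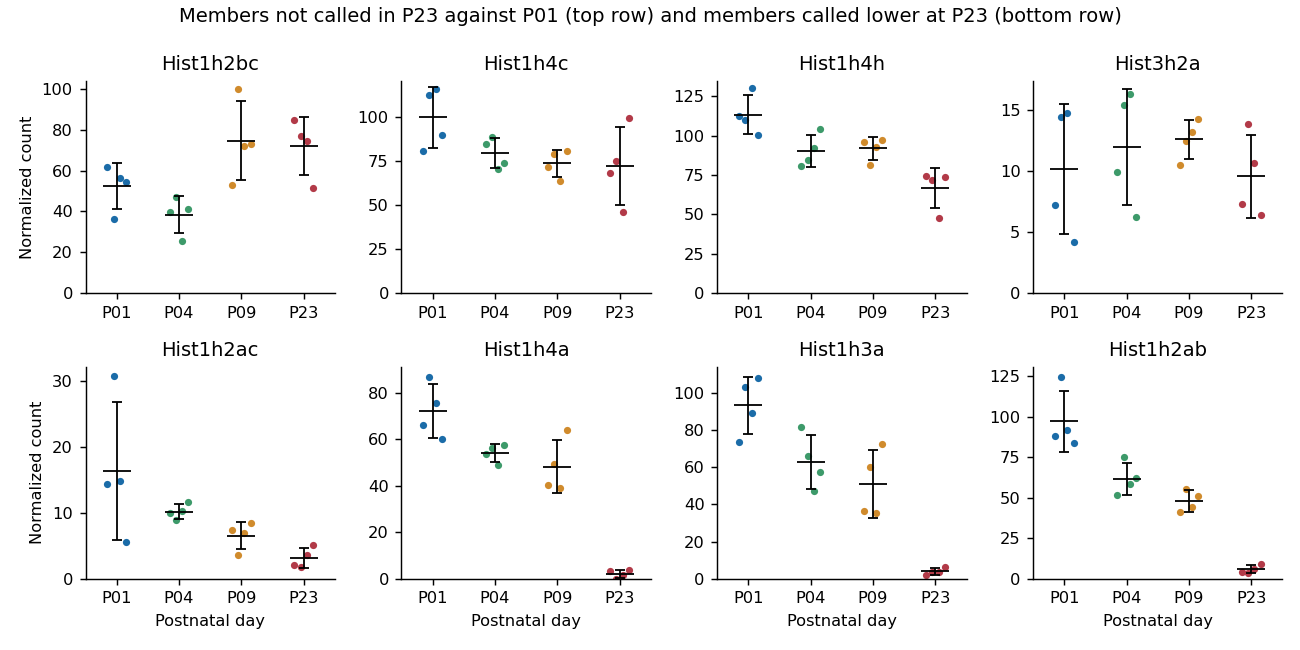
Normalized counts (y axes, starting at 0) by postnatal day (x axis) for 4 histone genes that were not called in P23–P01 (Hist1h2bc, Hist1h4c, Hist1h4h and Hist3h2a) and 4 that were called lower (Hist1h2ac, Hist1h4a, Hist1h3a and Hist1h2ab), with 1 point per library and the mean ± SD of 4 libraries. The P23 points of Hist1h4a run over 0 to 3.87 and those of Hist1h4c over 46.1 to 99.3.

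Many H2A and H2B genes lie next to each other and share the stretch between them. Of 12 pairs whose spans are at most 500 bases apart, 7 had both genes tested. Among the untested pairs, Hist1h2ao and Hist1h2ap were given the same span beside Hist1h2bq, so that place is counted more than once. The stretches between Hist1h2ac and Hist1h2bc (239 bases) and between Hist1h2ag and Hist1h2bj (248 bases), the pairs whose genes differed most in P23–P01, are shown from RefSeq on GRCm38.p6. They are written 5′ to 3′ on the strand of the H2A gene, with capitals for the TATA motif (TATAA), the CCAAT box and the octamer (ATTTGCAT) in either direction.
Hist1h2ac to Hist1h2bc, chr13:23683960-23684198, minus strand: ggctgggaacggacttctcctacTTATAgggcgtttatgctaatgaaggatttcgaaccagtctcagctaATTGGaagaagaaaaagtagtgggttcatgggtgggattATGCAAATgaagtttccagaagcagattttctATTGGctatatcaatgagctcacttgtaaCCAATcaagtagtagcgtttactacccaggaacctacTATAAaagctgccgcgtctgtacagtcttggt
Hist1h2ag to Hist1h2bj, chr13:22042950-22043197, minus strand: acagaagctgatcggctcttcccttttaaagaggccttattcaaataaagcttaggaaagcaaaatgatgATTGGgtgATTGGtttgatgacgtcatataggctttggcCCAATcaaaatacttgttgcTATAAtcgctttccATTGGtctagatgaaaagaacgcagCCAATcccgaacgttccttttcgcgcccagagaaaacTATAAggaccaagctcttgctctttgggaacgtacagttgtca

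Counted on both strands, the stretch at Hist1h2ac holds the TATA motif 2 times, CCAAT 3 times and the octamer 1 time, and that at Hist1h2ag holds TATA 2 times and CCAAT 5 times. No motif contains another, and a match describes these letters and is not evidence of a bound factor.

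Expression of neighbours was compared as the log2 ratio of the H2B gene to the H2A gene, with 1 normalized count added to each. This ratio changed most for Hist1h2bc and Hist1h2ac, where P23 minus P01 was 2.38 (two-sided exact permutation p = 0.0286, adjusted p = 0.10 over the 7 pairs). Hist1h2ac, named here after its values were seen, had 2.10, 1.85, 3.55 and 5.16 normalized counts at P23, against 14.4, 30.7, 14.8 and 5.6 at P01, with a log2 fold change of -2.32 ± 0.47 (SE, adjusted p = 1.18e-04). The P23 libraries were all below those of P01, of which replicate 8 was close to them. For Hist1h2bj and Hist1h2ag the ratio changed by 1.56 (exact permutation p = 0.0286, adjusted p = 0.10). A p of 0.0286 is the smallest that 70 assignments of 4 against 4 libraries allow, so no pair could have reached an adjusted p under 0.01. The other 5 pairs had differences of -0.01 to 1.24.

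**Figure D4:**
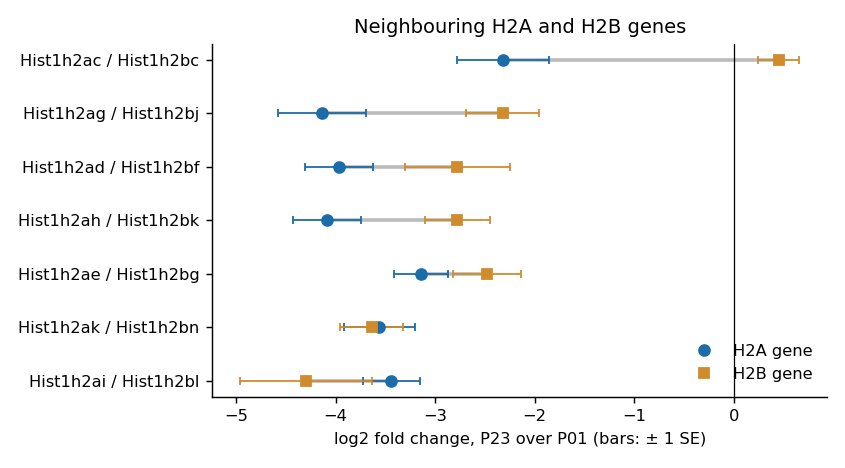
Log2 fold change of P23 over P01 (x axis) with ± 1 SE for the H2A gene (circles) and the H2B gene (squares) of 7 neighbouring pairs (y axis), a grey line joining the genes of a pair. The widest gap is that of Hist1h2ac at -2.32 and Hist1h2bc at 0.45, while the genes of the pairs Hist1h2ak and Hist1h2bn lie on each other.

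All 10 tested H3 genes were called lower in P23–P01, with a median of -3.37. Hist1h3a, on chromosome 13 at 23761885 to 23762386, had 73.5, 103, 88.9 and 108 normalized counts in P01 libraries, 81.5, 65.9, 47.0 and 57.4 in P04, 36.3, 59.9, 35.2 and 72.3 in P09 and 2.10, 3.70, 3.55 and 6.45 in P23 libraries. The earlier days overlapped from each to the next, and the P23 libraries stood apart from all of them. The log2 fold change was -4.56 ± 0.32 in P23–P01 (SE, adjusted p = 1.71e-11) and -3.67 ± 0.33 in P23–P09 (adjusted p = 7.48e-09). In P09–P01 it was called at -0.90 ± 0.21, a call lost when replicate 5 or 8 of P01, or replicate 2 or 4 of P09, was left out.

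Hist1h3g had 0, 3.70, 0.887 and 5.16 normalized counts at P23, against 54.7, 57.9, 57.9 and 44.8 at P01, a log2 fold change of -4.48 ± 0.38 (SE, adjusted p = 3.84e-11). Hist1h3i had 6.29, 2.77, 9.75 and 5.16 normalized counts at P23, against 64.8, 70.5, 79.5 and 96.5 at P01, and -3.66 ± 0.29 (adjusted p = 1.45e-11). Both stood far below their P01 level in every P23 library. Hist1h3e was called in P09–P01, at -1.35 ± 0.28 (adjusted p = 2.96e-04), but not in P23–P09, at -0.88 ± 0.34 (adjusted p = 0.0563). The same held for Hist2h3b, picked after its values were seen. It had -0.91 ± 0.18 in P09–P01 (adjusted p = 2.25e-04) and -0.83 ± 0.21 in P23–P09 (adjusted p = 0.00357), which did not pass the fold threshold. The tested H3 genes other than Hist1h3a, Hist1h3g and Hist1h3i had P23–P01 values of -3.76 to -1.74.

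All replication-dependent H4 genes make the same or nearly the same protein, but their P23–P01 values ran from -5.06 to -0.48. Of 11 tested, 8 were called lower, with a median of -2.05. Hist1h4a (ENSMUSG00000060093), on chromosome 13 at 23760795 to 23761249, had 66.3, 86.8, 75.4 and 60.1 normalized counts in P01 libraries, 53.7, 56.2, 49.1 and 57.4 in P04, 40.5, 49.1, 38.9 and 63.9 in P09 and 3.14, 0, 1.77 and 3.87 in P23 libraries. Its log2 fold change of -5.06 ± 0.32 in P23–P01 (SE, adjusted p = 6.20e-14) was the lowest of all tested histone genes. The 4 P23 libraries held 8 counts and the P01 libraries 193, a scaled ratio of 0.0285 (exact 95% interval for counting error only, 0.0121 to 0.0572).

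Hist1h4c (ENSMUSG00000060678), on chromosome 13 at 23698084 to 23698458, had 80.7, 112, 116 and 89.5 normalized counts in P01 libraries, 84.5, 88.7, 70.5 and 73.6 in P04, 71.5, 78.6, 63.4 and 80.7 in P09 and 68.1, 74.9, 46.1 and 99.3 in P23 libraries. The P23 and P01 libraries overlapped, and the log2 fold change was -0.48 ± 0.18 (SE, adjusted p = 0.0259), which was not called. Hist1h4h, on chromosome 13 at 23531044 to 23531478, had 74.4, 72.1, 47.9 and 73.5 normalized counts at P23, against 112, 110.3, 131 and 101 at P01. No P23 library reached a P01 library, and its value of -0.77 ± 0.15 passed the threshold for p (adjusted p = 7.62e-05) but not that for the fold change.

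The 150 bases before the starts of Hist1h4a, the gene with the lowest value, and of Hist1h4c and Hist1h4h, which were not called, are shown with the same motifs in capitals.
Hist1h4a, chr13:23761250-23761399, minus strand: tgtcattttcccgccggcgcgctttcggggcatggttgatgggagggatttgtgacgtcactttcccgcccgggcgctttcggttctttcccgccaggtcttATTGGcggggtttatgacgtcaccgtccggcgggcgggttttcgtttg
Hist1h4c, chr13:23698459-23698608, minus strand: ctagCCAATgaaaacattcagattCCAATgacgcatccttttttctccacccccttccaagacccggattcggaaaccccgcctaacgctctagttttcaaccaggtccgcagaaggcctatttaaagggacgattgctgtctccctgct
Hist1h4h, chr13:23530894-23531043, plus strand: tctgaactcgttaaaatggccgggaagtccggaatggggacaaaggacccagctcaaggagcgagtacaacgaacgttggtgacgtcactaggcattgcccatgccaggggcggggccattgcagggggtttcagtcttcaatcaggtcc

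The 150 bases of Hist1h4a hold CCAAT 1 time, those of Hist1h4c 2 times, and those of Hist1h4h none of the motifs. In the 250 bases before the start of each gene, 60 members with 1 RefSeq start could be searched among 32851 promoters. TATAA was found in 39 of the 60 (65.0%), against 22.8% of all promoters, CCAAT in 49 (81.7%), against 33.8%, and ATTTGCAT in 13 (21.7%), against 1.6%. CCAAT was present in all 6 H1, 17 H2A and 15 H2B promoters, 8 of 10 H3 and 3 of 12 H4 promoters. The octamer was found in 7 H2A and 6 H2B promoters and in none of H1, H3 or H4. The 250 bases of neighbouring H2A and H2B genes overlap, so a site between them can be counted for both genes. Counts and shares of promoters with a motif are therefore not counts of independent sites.

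Hist2h4 and Hist4h4, on chromosomes 3 and 6, were picked after their values were seen and lay on either side of the same threshold. Hist2h4 had 25.1, 15.7, 19.5 and 24.5 normalized counts at P23, against 40.3, 34.4, 41.7 and 32.2 at P01, and -0.83 ± 0.22 (SE, adjusted p = 0.00202). Hist4h4 had 18.9, 24.0, 15.1 and 29.7 normalized counts at P23, against 51.8, 28.9, 44.4 and 46.2 at P01, and -1.01 ± 0.24 (adjusted p = 8.45e-04), a call lost without P23 replicate 6. In Hist4h4 the highest P23 library reached past the lowest P01 library, while in Hist2h4 the groups did not overlap. Scaled by total counts, under which the median of all tested genes was -0.38, Hist1h4c, Hist1h4h and Hist2h4 were called lower as well, at -0.88, -1.17 and -1.21.

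Hist1h4d and Hist1h4f, the other H4 genes of high count, were called lower in P23–P01. Hist1h4d had 45.0, 68.4, 40.8 and 54.2 normalized counts at P23, against 186, 166, 175 and 161 at P01, and -1.72 ± 0.15 (SE, adjusted p = 8.52e-11). Hist1h4f had 13.6, 14.8, 7.09 and 23.2 normalized counts at P23, against 118, 107, 108 and 118 at P01, and -2.98 ± 0.21 (adjusted p = 5.78e-13). Its call in P04–P01 (-0.85 ± 0.17) stood at the fold threshold and was lost when replicate 1 or 8 of P01, replicate 1, 3 or 4 of P04, or replicate 2 of P09 was left out. Of the H4 counts, not corrected for length, Hist1h4c held 25.6% at P23 against 11.7% at P01, and Hist1h4h 24.3% against 13.3%.

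Of the 18 untested members, 5 had 0 counts in all libraries: the testis-specific Hist1h2ba, and Hist1h2bq, Hist1h2br, Hist2h2aa2 and Hist2h3c1. Another 5 had 1 or 2 counts in all (Hist1h2ao, Hist1h2ap, Hist1h4m, Hist1h2aa and Hist2h2aa1). These names were picked after their values were seen. Several of them are near-identical copies of other members, and how reads that match more than 1 place were counted is not given in the sources used here, so a count of 0 does not show that a gene was silent and the values of single copies are uncertain.

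The other 8 untested members had few counts. Hist1h2bp had 0 counts in all P23 libraries, against 16 in the P01 libraries. Hist3h2ba had 0, 1.85, 0 and 0 normalized counts at P23, against 5.76, 7.23, 5.39 and 9.79 at P01, and Hist1h2af had 1.05, 0, 0 and 1.29, against 5.76, 5.42, 6.73 and 6.99. In all of these, and in Hist1h1t and Hist2h2ab, every P23 library lay below every P01 library. The same held for 21.6% of all tested genes. Hist2h2be, an H2B gene of the chromosome 3 cluster, had 8.38, 7.40, 8.87 and 5.16 at P23, against 15.8, 7.23, 6.73 and 5.6 at P01, and its groups overlapped. Hist1h4i, Hist2h2ab, Hist1h1t and Hist2h3c2 had 1 to 24 counts per time point in the P23 and P01 groups.

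By position, 54 members lie on chromosome 13 (Hist1), 10 on chromosome 3 (Hist2), 2 on chromosome 11 (Hist3) and 1 on chromosome 6 (Hist4h4). In P23–P01, 40 of 43 tested genes of Hist1, 3 of 4 of Hist2, 0 of 1 of Hist3 and 1 of 1 of Hist4 were called lower. The chromosome 13 genes form blocks. In the block at 21715711 to 21837530, all 12 tested genes were called lower, with a median of -3.62, and in that at 22035122 to 22043658 all 4 were, with a median of -3.43. In the block at 23531044 to 23764412, 24 of 27 were called lower, with a median of -2.88, and all 3 exceptions of the cluster (Hist1h2bc, Hist1h4c and Hist1h4h) lie in it. The block holds 27 of the 43 tested genes of the cluster, and a grouping of the exceptions was not tested. Hist1h4h lies at the start of the block, and genes called lower, such as Hist1h4f and Hist1h1e, lie between it and Hist1h2bc. Within a stretch of this block Hist1h2ac, Hist1h2bc, Hist1h1t, Hist1h4c and Hist1h1c follow each other, and the P23–P01 values of the 4 tested genes were -2.32, 0.45, -0.48 and -1.35.

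Genes that act on histone genes and their products were taken from lists put together with earlier results of these data known. Of 25 tested genes that process or degrade histone mRNA, 4 were called lower and 2 higher in P23–P01, shares no larger than those of all tested genes (16.6% lower and 13.6% higher), with a median of -0.13. Slbp, which binds the stem-loop, had -0.22 ± 0.28 (SE, adjusted p = 0.537), and Eri1, an exonuclease that trims the stem-loop, had -0.29 ± 0.32 (adjusted p = 0.488). Lsm11, a subunit of the U7 particle that directs cleavage, fell (-1.85 ± 0.25, adjusted p = 3.04e-07), as did the decay factors Lsm1 (-2.39 ± 0.20), Upf1 (-1.59 ± 0.17) and Tut4 (-0.86 ± 0.14). Sympk, a scaffold of the cleavage complex, rose (1.37 ± 0.23), as did the cap-binding Ncbp2 (0.92 ± 0.24). Scaled by total counts, 8 genes of the list were lower and 1 higher. Lsm10, the partner of Lsm11, was under the filter, with a mean of 4.92 normalized counts at P23 and 8.63 at P01.

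Of 15 tested genes of histone gene transcription, 4 were called lower and 1 higher in P23–P01 (16.6% of all tested genes were called lower and 13.6% higher). E2f1, an S phase activator, fell most (-3.36 ± 0.25, SE, adjusted p = 1.35e-12), followed by Ccne2, Tfdp1 and Cdk2, while Nfya, a subunit of the CCAAT-binding factor, rose (1.06 ± 0.32, adjusted p = 0.00762). The coactivator Npat had -0.65 ± 0.26 (adjusted p = 0.0426), its partner in the histone locus body Casp8ap2 -0.54 ± 0.24 (adjusted p = 0.0613), and the H4 promoter factor Hinfp -0.00 ± 0.36 (adjusted p = 0.999). None of these 3 passed the thresholds. The higher call of Nfya was lost when scaled by protein-coding genes or by total counts.

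The replication-independent variants had a median of -0.92 in P23–P01, where 16.6% of all tested genes were called lower and 13.6% higher. Of 11 tested, 6 were called lower and 0 higher: H1fx (-4.38 ± 0.43), H2afz (-1.85 ± 0.28), H2afx (-1.70 ± 0.21), H3f3b (-1.64 ± 0.15), the centromeric Cenpa (-1.54 ± 0.22) and H2afv (-0.92 ± 0.16). H3f3a, which makes the same variant protein as H3f3b, had -0.71 ± 0.22 (SE, adjusted p = 0.00731), and H1f0, the linker histone of resting cells, had -0.36 ± 0.16 (adjusted p = 0.0722). Of 22 tested chaperones and import factors 7 were lower and 0 higher, among them Chaf1a (-3.65 ± 0.76) and Chaf1b (-2.17 ± 0.53) of the replication-coupled complex CAF-1, Asf1b (-2.47 ± 0.52) and Nasp (-1.08 ± 0.17). Scaled by total counts, 13 were lower.

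The medians of the DNA replication and mitosis genes lay on either side of that of the histone genes. Of 36 tested replication and S phase genes, 20 were called lower and 0 higher in P23–P01, with a median of -1.36, and of 24 mitosis genes all 24 were called lower, with a median of -3.58. Rrm2, the S phase subunit of ribonucleotide reductase, had -3.54 ± 0.26, and the sliding clamp Pcna -1.13 ± 0.28. Mki67 and Top2a, markers of cycling cells, had -3.59 ± 0.19 and -3.85 ± 0.19 (SE, adjusted p = 1.47e-15 and 1.61e-16). At P04 the replication genes stood at 101% of P01 and the mitosis genes at 76.3%, and at P09 at 85.7 and 67.9%. In P09–P01, 1 of 36 replication genes was lower (Mcm7, -0.87 ± 0.17) and 1 higher (Mcm2, 1.24 ± 0.34). Of 24 mitosis genes, 3 were lower and 0 higher, where 11.5% of all tested genes were called lower and 6.18% higher. Of these 5 calls, the 4 lower ones were lost when scaled by total counts. No test compared the lists with each other.

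**Figure D5:**
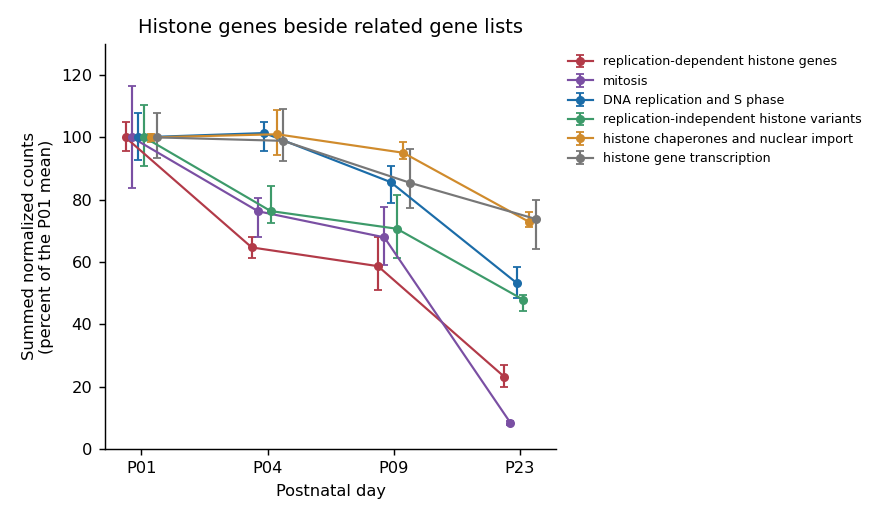
Summed normalized counts as a percent of the P01 mean (y axis, starting at 0) by postnatal day (x axis) for the histone genes and 5 related lists, with points at the mean of 4 libraries and bars from the lowest to the highest library. At P23 the histone genes stood at 23.2%, the mitosis genes at 8.30% and the replication genes at 53.2%, and at P04 the histone genes stood lowest, at 64.7%.

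Markers of other cell types moved over the same days. Of all tested genes, 16.6% were called lower and 13.6% higher in P23–P01, and 11.5% lower and 6.18% higher in P09–P01. The 10 erythroid genes summed to 5228 to 6619 normalized counts in the P23 libraries, against 1397 to 1477 in the P01 libraries, and all 6 tested were called higher. The 16 leukocyte genes summed to 231 to 295 at P23, against 116 to 141 at P01, with 2 of 6 tested called higher. The endothelial genes summed to 794 to 1014 at P23, against 703 to 867 at P01, and Fabp4 held 45.5% of their counts. Of 9 tested, 1 was called higher and 0 lower, where 13.6% of all tested genes were called higher. The fibroblast and smooth muscle genes summed to 2305 to 3075 at P23, against 2083 to 2669 at P01, with 5 of 11 tested called higher and 1 lower. At P09 their sum was 3515 to 3844, above all P01 libraries, with 4 called higher and 0 lower in P09–P01. The 5 atrial genes summed to 178 to 429 at P23, against 539 to 754 at P01, with 1 of 4 tested called lower and 0 higher. Of 8 germ line genes, 4 were at 0 in all libraries and none was tested. The erythroid sum was also higher at P09 (2479 to 3324) than at P04 (810.4 to 1054), the days between which Hist1h2bc rose. This was not limited to the erythroid list. The cardiomyocyte sum was 59460 to 71696 at P09, against 43944 to 52425 at P04, and the endothelial sum 954 to 1218, against 818 to 953. The leukocyte, fibroblast and smooth muscle, and atrial sums overlapped between these days. From P09 to P23 the erythroid sum rose again (to 5228 to 6619), as did the cardiomyocyte sum (to 72781 to 100218), while Hist1h2bc had -0.03 ± 0.19. The part of these cells in the histone values was not tested.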

How the data were processed

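Ventricular RNA of 16 animals was read as 1 library per animal, with 4 animals per time point. Per the labels and the methods of the study, libraries were made with the SMARTer smRNA-Seq kit, and the authors processed the reads with bcl2fastq, Trimmomatic, STAR (GRCm38.p6), featureCounts and DESeq2. The deposited values are raw counts per gene. For tool versions, annotation release, strandedness and the counting of reads with several matches or over 2 genes, nothing was given in the sources used here. The libraries carry no molecular identifiers, so intervals cover counting error only.

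Of the value columns, 16 were matched by name to a time point but not to a single labelled sample, and 1 was not used. Symbols were found for 53620 of 53801 genes (181 had none). Of 70 genes with matching symbols, 3 pseudogenes were left out. Libraries of a time point differed by more than sampling noise in all 24 pairs (4.23 to 22.0 as chi-square over its degrees of freedom).

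Counts were tested with edgeR 4.0.16 (quasi-likelihood, TMM, all 16 libraries in 1 fit) in R 4.3.3, on the 10742 genes that filterByExpr kept (minimum count 10, minimum total 15), with Benjamini-Hochberg adjustment over them. The SE is the log2 fold change divided by the root of F. DESeq2 1.42.0, other scalings, no filter, another threshold, fits of 2 groups, a replicate block and leaving out each library were alternatives. The fit was tested on data simulated for P23–P01. It recovered 15 of 65 genes changed 1.8-fold, 50 of 64 changed 3-fold and 58 of 61 changed 6-fold. A gene that was not called is therefore not shown to be unchanged. Ratios of neighbouring genes were compared with exact permutation tests (scipy 1.17.1, Python 3.11.15). Members with the 15 highest means, the 5 largest changes per comparison and those called against the majority were named, with exceptions stated. Of the related lists, up to 6 called genes per comparison and a fixed set of genes were named. The members and lists were chosen with earlier results of these data known. Promoter sequences and gene annotation are from RefSeq on GRCm38.p6.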

Additional observations from a re-analysis of the deposited data

Results flagged for a closer look

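Among 27 histone genes and 6 sums, 132 groups of 4 libraries were searched for a single library set apart from the others, by a gap to the nearest library that, as a share of the group's range, passed Dixon's 95% critical value. Chance gives about 1 such group in 20, and 2 were found. At P23, Hist1h2bh had 6.45 normalized counts in replicate 8 and 2.66 to 3.14 in the other libraries. At P23, Hist1h4h had 47.9 normalized counts in replicate 6 and 72.1 to 74.4 in the others. Neither was explained here.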

How the results depend on the processing

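The number of histone genes called lower in P04–P01 (5) was 1 with total counts only, 2 with no filter on low counts, 17 at an adjusted p under 0.05 with no fold threshold, and 3 to 7 when a library was left out (3 without P01 replicate 6 or P04 replicate 1). In P09–P01 (19) it was 7, 11 and 35 under the same settings, and 13 to 21 with a library left out. In P09–P04, 1 gene was lower in place of 0 with no fold threshold, and the higher call of Hist1h2bc was 0 to 1 with a library left out. Counts lower in P23–P09 and P23–P01 stayed at 35 to 38 and 43 to 45 with a library left out. DESeq2 gave 36 and 44. With total counts only, the median of all tested genes was 0.24, 0.32, -0.68 and -0.38 in P04–P01, P09–P01, P23–P09 and P23–P01. The share of lower among all calls was then 51.6, 37.9, 95.9 and 79.1%, against 79.4, 65.0, 53.7 and 55.1% with TMM factors.

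The P23 level of the histone share of counts (17.6% of P01) was 24.6% scaled by protein-coding counts, 23.6% without mitochondrial and rRNA genes and 23.2% in TMM-normalized counts. The P09 level (71.3%) was 78.7% without those genes and 58.7% in TMM-normalized counts, and the P04 level (75.9%) was 76.9 and 64.7%, so that P09 lay above P04 without mitochondrial and rRNA genes. The TMM values of the share, and leaving out libraries there (P23 17.2 to 18.1%), were chosen after seeing the data.

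Among the related lists, with total counts only, P09–P01 gave 3 higher processing genes (1), 2 higher transcription genes (0), 1 lower variant (3), 1 higher chaperone (0), 0 lower and 2 higher replication genes (1 and 1) and 0 lower mitosis genes (3), with the counts under TMM scaling in brackets. P23–P01 gave 8 lower and 1 higher processing genes (4 and 2), 0 higher transcription genes (1) and 13 lower chaperones (7). Scaling by protein-coding genes gave 5 lower mitosis genes in P09–P01 (3) and 0 higher transcription genes in P23–P01 (1).

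Values that changed sign were not called. Hist2h4 in P09–P01 was 0.24 with total counts only, 0.11 with no filter, and -0.11 to 0.059 with a library left out. Hist3h2a in P23–P01 was 0.059 with no filter and -0.28 to 0.27 with a library left out. In P23–P09, leaving out a library gave -0.22 to 0.13 for Hist1h4c, -0.17 to 0.15 for Hist1h2bc and -0.23 to 0.016 for Hist2h2ac. Over 64 named values, 1407 of 1487 values under alternatives kept direction and call, 40 lost the call, 25 gained it and 15 changed sign. The causes were not tested.

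With the column number as a replicate block in a fit of P23 and P01, 40 genes were lower and 0 higher, as without the block in that fit. Deviations of same-numbered libraries correlated at -0.02 to 0.03 over 4 pairs, and 2 of 4 numbers correlated best with their own, so the numbers are not taken as pairs. Low counts at P23 limit single genes, and short, near-identical histone genes cannot be told apart where reads match several.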
